A study of Mus musculus with 6 samples.

Results

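The 36 genes described here encode aminoacyl tRNA synthetases, 20 of them cytosolic enzymes and 16 mitochondrial ones whose symbols end in 2, and they were taken by symbol from a table of 18518 gene symbols measured by RNA sequencing. All 36 symbols had a row, so no newer name had to be tried, and all were among the 12187 genes whose FPKM averaged 1 or more. FPKM, for fragments per kilobase per unit of mapped reads, is a share of the library corrected for transcript length. Of the 6 libraries 3 came from BACH1-KO cells and 3 from WT cells, both of the mouse embryonic stem cell line E14Tg2A and both cultured for 2 days with serum and 200 units per ml of leukemia inhibitory factor. BACH1 is a heme-binding transcription factor, and its gene was disrupted with CRISPR/Cas9 on a LentiCRISPR V2 plasmid, followed by puromycin and sorting of single-cell clones. The labels do not state how many knockout clones were sequenced, nor that the libraries of a genotype came from separate cultures, so the p-values measure only the spread between these libraries. All knockout titles begin with ko1, WT titles begin with either WT3 or WT4, and some titles of the 2 genotypes end in the same digits. What these characters mark (a clone, a day or a batch) is not stated, and since columns could not be matched to titles, their part in the differences was not tested.

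An aminoacyl tRNA synthetase joins an amino acid to its tRNA and so supplies the ribosome with charged tRNA. The cytosol and the mitochondrion use separate sets of enzymes, both encoded in the nucleus, except that Gars (glycine) and Kars (lysine) each serve both compartments. In the cytosol 8 of the genes, Dars, Eprs, Iars, Kars, Lars, Mars, Qars and Rars, encode enzymes of the multisynthetase complex, and the other 12 encode free enzymes. Many cytosolic synthetase genes are known targets of ATF4, the transcription factor of the response to amino acid shortage.

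Facts of the whole series bear on every value below. Of the 12187 genes tested, 77.0% passed an adjusted p of 0.05 (limma on log2(FPKM + 1), Benjamini-Hochberg over all genes), 37.3% higher and 39.7% lower in BACH1-KO, and the median log2 fold change was -0.01. In 79.3% of the genes the libraries of the genotypes did not overlap, 38.4% with BACH1-KO above and 40.9% with BACH1-KO below. Relative depth, read from the steps of low FPKM values, was 1.17, 1.18 and 1.01 in BACH1-KO and 1.00, 1.11 and 1.06 in WT. All 8 embryonic stem cell markers were present in both genotypes, with a summed level of 6733 to 6988 FPKM in BACH1-KO and 10477 to 11250 FPKM in WT, 7 lower and 1 higher in BACH1-KO. All 20 hepatocyte markers were higher in BACH1-KO, with a sum of 1016 to 1050 FPKM there and 11.4 to 18.5 FPKM in WT, where Apoh was listed at 0 in every library. Of 10 fibroblast feeder markers 5 were tested, 1 higher and 4 lower. The sum of all 10 was 125 to 130 FPKM in BACH1-KO and 253 to 271 FPKM in WT, where Col3a1 was listed at 0. Most of it was Vim (mean 54.9 FPKM in BACH1-KO and 186 in WT) and Fn1 (58.8 and 48.7). The untested markers were each under 1 FPKM and went both ways. BACH1-KO was all above WT for Col1a2, Col3a1 and Postn and all below for Col1a1 and Pdgfra. In bulk RNA a change in the share of cells of a type and a change of RNA per cell cannot be told apart, and the part of these markers in the results below was not tested. Bach1 itself had 10.5, 10.4 and 10.4 FPKM in BACH1-KO and 7.97, 8.39 and 8.47 FPKM in WT, and a transcript level does not show whether the coding sequence was edited.

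Cytosolic synthetase transcripts were more often higher than lower in the knockout cells. Of the 20, 14 rose, 5 fell and 1 did not pass the threshold, where 37.3% of all tested genes rose and 39.7% fell. Their median log2 fold change was 0.26 and ran from -0.73 for Hars to 1.16 for Cars, and it was 0.41 after quantile normalization. The knockout libraries were all above the WT libraries in 14 genes, where 38.4% of all genes were so, and all below in 6, where 40.9% were so. Of the 12 free enzymes 9 rose, among them the 6 largest rises, and 2 fell, with a median of 0.59. In the complex 5 of 8 rose and 3 fell, with a median of 0.14 and a largest rise of 0.43, for Iars. Tested against a fold change of 1.5 (limma's treat), 6 cytosolic genes were higher and 1 was lower, all of them free enzymes, where 10.9% of all tested genes passed as higher and 8.16% as lower. By the structural class of the enzyme, leaving out Eprs, which holds one of each, 7 of 9 class I genes and 7 of 10 class II genes rose, with medians of 0.36 and 0.23.

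**Figure D1:**
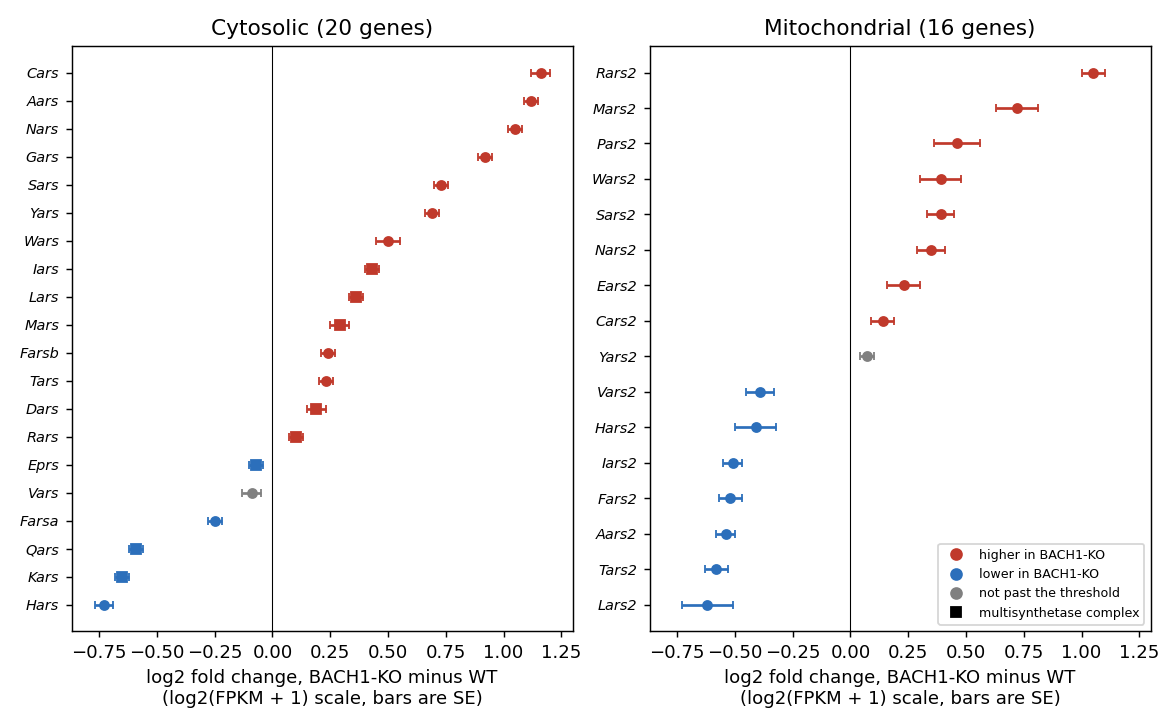
Difference in log2(FPKM + 1) of each synthetase transcript between BACH1-KO and WT, positive where BACH1-KO was higher, with its moderated standard error (3 libraries per genotype), cytosolic genes on the left and mitochondrial on the right. Red points rose, blue fell, grey did not pass an adjusted p of 0.05, and squares mark the multisynthetase complex; the cytosolic changes run from -0.73 to 1.16 and the mitochondrial from -0.62 to 1.05.

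The 3 largest cytosolic rises were those of Cars, Aars and Nars, each more than doubled. Cars, the cysteinyl enzyme (chromosome 7, 143557230 to 143600090, minus strand, mm10), had 64.5, 71.0 and 67.9 FPKM in BACH1-KO and 30.3, 29.5 and 29.3 FPKM in WT. The lowest knockout library was far above the highest WT one, and the log2 fold change was 1.16 (SE 0.04, adjusted p = 1.43e-07). Aars, the alanyl enzyme (chromosome 8, 111033144 to 111057664, plus strand), had 194, 200 and 200 FPKM in BACH1-KO and 92.5, 90.3 and 89.6 FPKM in WT. Its libraries lay close together within each genotype, and its log2 fold change was 1.12 (SE 0.03, adjusted p = 3.65e-08). Nars, the asparaginyl enzyme (chromosome 18, 64499647 to 64516652, minus strand), had 285, 284 and 288 FPKM in BACH1-KO and 140, 137 and 135 FPKM in WT. The knockout values of Nars varied least of all cytosolic members, with a coefficient of variation of 0.735%, and the log2 fold change was 1.05 (SE 0.03, adjusted p = 3.79e-08).

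Gars, Sars and Yars rose less. Gars, the glycyl enzyme (chromosome 6, 55038007 to 55079500, plus strand), had 292, 291 and 301 FPKM in BACH1-KO and 155, 153 and 159 FPKM in WT, a log2 fold change of 0.92 (SE 0.03, adjusted p = 9.48e-08). It was the only member on chromosome 6, where the 570 tested genes had a median log2 fold change of 0.32 and 59.6% were called higher. Relative to the median of that chromosome the log2 fold change of Gars was 0.61, still called (adjusted p = 5.05e-07). Sars, the seryl enzyme, which also charges the selenocysteine tRNA, had 132, 135 and 133 FPKM in BACH1-KO and 79.4, 81.7 and 78.0 FPKM in WT, a log2 fold change of 0.73 (SE 0.03, adjusted p = 2.95e-07). Yars, the tyrosyl enzyme, had 81.3, 83.7 and 81.2 FPKM in BACH1-KO and 51.2, 51.2 and 49.3 FPKM in WT, a log2 fold change of 0.69 (SE 0.03, adjusted p = 5.15e-07). For both, every knockout library was above every WT library by many times the spread within a genotype.

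The other 8 cytosolic genes that rose did so by a log2 fold change of 0.10 to 0.50. They were Wars (tryptophan), Iars (isoleucine), Lars (leucine), Mars (methionine), Farsb (the beta subunit for phenylalanine), Tars (threonine), Dars (aspartate) and Rars (arginine). Wars, the largest of these, averaged 40.8 ± 1.08 FPKM in BACH1-KO and 28.6 ± 1.64 FPKM in WT (SD, n = 3 each). Rars, the smallest, averaged 181 ± 3.43 FPKM in BACH1-KO and 169 ± 4.62 FPKM in WT, and its call (adjusted p = 0.0201) was lost without the second knockout, the third knockout or the second WT column (adjusted p = 0.0659, 0.0702 and 0.0573) and with a constant prior variance (0.0624). After quantile normalization the log2 fold changes of the 3 smallest rises were larger, 0.27 for Rars, 0.35 for Dars and 0.40 for Tars, against 0.10, 0.19 and 0.23. Mars shares 68 exon bases with Ddit3, a stress-response transcription factor gene on the opposite strand, which had 133 FPKM in BACH1-KO and 23.9 FPKM in WT, and the labels do not say whether counting used strand.

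Atf4 transcript, given for the known link of ATF4 to these genes, averaged 419 ± 11.7 FPKM in BACH1-KO and 91.7 ± 5.88 FPKM in WT (log2 fold change 2.18, adjusted p = 1.83e-08), and its part in the values of the synthetases was not tested. The promoters of the synthetases were searched for TGATGNAA, the core of the C/EBP-ATF response element to which ATF4 heterodimers bind, on both strands of the window from 250 bases before to 50 bases after each start in RefSeq (GRCm38.p6). A promoter was matched for 27 of the 36 genes, with no entry for Cars, Hars, Lars, Nars, Rars, Vars, Wars, Hars2 and Pars2. The motif was in the promoters of 5 of the 27, Aars, Gars, Iars, Tars and Yars, all cytosolic and all called higher, where 37.3% of all tested genes were called higher and 14 of the 20 cytosolic members were. Of the 22 without it, 8 were cytosolic (4 higher and 4 lower) and 14 mitochondrial (7 higher, 6 lower and 1 not past). It was in 3.97% of all 32851 promoter windows and in 2.1% of the 11792 windows of tested genes. A gene can have more than 1 window, so these are shares of windows, while the 5 of 27 counts genes. A match describes letters and is not a measured binding site, and no match says only that these letters are not in the window.

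The promoters that hold the motif are shown 5′ to 3′ on the strand of the gene, to set its place in each, with the matched bases in capitals, and that of Kars is shown as a promoter without it. Aars has it on both sides of the RefSeq start, beginning at -112 and at 10. Gars has it at -30, Yars at 4, Iars at 8 and Tars at -15. Positions are counted from 1 at the first base transcribed from the RefSeq start. The gene coordinates given for members are from GENCODE M21, and the 2 starts can differ. In GENCODE Aars begins at 111033144, before its window, so both of its sites lie inside that gene. Yars and Iars begin there at 129189760 and 49682100, within their windows and before their sites. The windows are chr8:111033592-111033891 (plus strand) for Aars, chr6:55037751-55038050 (plus) for Gars, chr4:129189653-129189952 (plus) for Yars, chr13:49681880-49682179 (plus) for Iars, chr15:11399609-11399908 (minus) for Tars and chr8:112011305-112011604 (minus) for Kars.
Aars: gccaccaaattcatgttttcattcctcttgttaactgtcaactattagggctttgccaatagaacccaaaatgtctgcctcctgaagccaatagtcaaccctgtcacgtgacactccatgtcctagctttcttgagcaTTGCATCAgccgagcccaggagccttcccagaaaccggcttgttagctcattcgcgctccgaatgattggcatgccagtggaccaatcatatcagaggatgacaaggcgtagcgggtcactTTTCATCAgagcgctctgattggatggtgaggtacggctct
Gars: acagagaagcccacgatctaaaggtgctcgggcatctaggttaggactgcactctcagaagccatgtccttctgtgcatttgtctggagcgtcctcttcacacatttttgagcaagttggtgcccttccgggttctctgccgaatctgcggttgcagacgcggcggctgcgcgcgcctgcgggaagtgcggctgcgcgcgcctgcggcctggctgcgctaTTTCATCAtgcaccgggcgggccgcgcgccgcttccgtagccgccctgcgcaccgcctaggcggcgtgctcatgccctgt
Yars: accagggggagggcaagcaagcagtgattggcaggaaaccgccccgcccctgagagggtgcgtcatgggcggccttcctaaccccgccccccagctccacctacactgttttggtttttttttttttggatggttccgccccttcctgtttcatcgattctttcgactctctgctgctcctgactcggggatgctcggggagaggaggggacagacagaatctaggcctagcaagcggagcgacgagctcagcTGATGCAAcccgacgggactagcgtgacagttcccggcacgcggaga
Iars: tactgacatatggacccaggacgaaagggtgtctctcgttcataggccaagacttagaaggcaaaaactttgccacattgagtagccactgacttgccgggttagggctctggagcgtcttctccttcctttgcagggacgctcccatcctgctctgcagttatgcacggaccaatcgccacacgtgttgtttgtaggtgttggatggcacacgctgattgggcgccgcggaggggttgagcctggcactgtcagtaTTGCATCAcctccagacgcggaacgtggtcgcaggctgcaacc
Tars: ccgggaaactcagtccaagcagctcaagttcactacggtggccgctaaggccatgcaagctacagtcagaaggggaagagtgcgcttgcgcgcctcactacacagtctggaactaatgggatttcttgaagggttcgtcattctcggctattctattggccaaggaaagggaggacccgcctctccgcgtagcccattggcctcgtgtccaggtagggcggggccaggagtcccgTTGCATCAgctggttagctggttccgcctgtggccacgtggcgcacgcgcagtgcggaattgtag
Kars: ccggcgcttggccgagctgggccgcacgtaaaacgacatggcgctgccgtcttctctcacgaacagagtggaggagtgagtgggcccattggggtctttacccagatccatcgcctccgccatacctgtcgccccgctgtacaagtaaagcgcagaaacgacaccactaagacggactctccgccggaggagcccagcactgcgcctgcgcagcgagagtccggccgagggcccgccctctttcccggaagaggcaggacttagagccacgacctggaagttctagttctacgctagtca

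The letters matched were TTGCATCA and TTTCATCA in Aars, TTTCATCA in Gars, TTGCATCA in Iars and Tars, and TGATGCAA in Yars, the last the reverse complement of the site in Iars and Tars. The 5 genes with the motif did not move alike: the log2 fold change was 1.12 for Aars, 0.92 for Gars, 0.69 for Yars, 0.43 for Iars and 0.23 for Tars. Sars, Mars, Farsb and Dars rose without a match in their windows. A core of the antioxidant response element, TGACNNNGC, which BACH1 and NRF2 bind with small MAF proteins, was found in 6 of the 27 genes (Aars, Aars2, Iars, Lars2, Mars and Nars2), and in 12.4% of all windows and 14.5% of those of tested genes. Those 6 genes moved both ways, with Aars2 and Lars2 lower and the other 4 higher. Of all tested genes 37.3% were called higher and 39.7% lower. An ETS site, CCGGAAGT, was in 3 of the 27 (Farsa, Mars and Rars2) and in 3.89% of all windows and 7.93% of those of tested genes. These last motifs were searched after the values had been seen, and no match of one motif overlapped a match of another.

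The cytosolic genes that fell were Hars, Kars, Qars, Farsa and Eprs. Hars, the histidyl enzyme (chromosome 18, 36766528 to 36783205, minus strand), had 39.9, 40.6 and 40.4 FPKM in BACH1-KO and 71.6, 67.0 and 63.8 FPKM in WT. The groups were far apart, and its log2 fold change of -0.73 (SE 0.04, adjusted p = 2.11e-06) was the lowest of all members. Kars, the lysyl enzyme of both compartments (chromosome 8, 111993443 to 112011323, minus strand), had 223, 231 and 231 FPKM in BACH1-KO and 357, 362 and 360 FPKM in WT, a log2 fold change of -0.65 (SE 0.03, adjusted p = 3.23e-07). Qars, the glutaminyl enzyme, had 96.9, 93.0 and 92.9 FPKM in BACH1-KO and 144, 145 and 140 FPKM in WT, a log2 fold change of -0.59 (SE 0.03, adjusted p = 9.01e-07). Both belong to the multisynthetase complex, and Gars and Kars, the genes that serve both compartments, thus moved in opposite directions.

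Farsa and Farsb encode the alpha and beta subunits of one phenylalanyl enzyme, and their transcripts moved apart. Farsa had 81.4, 80.0 and 81.7 FPKM in BACH1-KO and 99.5, 95.7 and 93.6 FPKM in WT, a log2 fold change of -0.25 (SE 0.03, adjusted p = 1.95e-04). Farsb, given in full after its values were seen, had 142, 146 and 144 FPKM in BACH1-KO and 125, 121 and 120 FPKM in WT, a log2 fold change of 0.24 (SE 0.03, adjusted p = 1.18e-04). Neither change reached 1.5-fold, and after quantile normalization the log2 fold changes were -0.11 for Farsa (adjusted p = 0.0186) and 0.39 for Farsb (adjusted p = 1.29e-05). Eprs, the enzyme for glutamate and proline, had 99.8, 96.7 and 99.1 FPKM in BACH1-KO and 104 FPKM in each WT library, a log2 fold change of -0.07 (SE 0.03, adjusted p = 0.0401). This call was lost on leaving out any 1 column other than the first WT column (adjusted p = 0.0538 to 0.135), and with median-of-ratios scaling, rescaling to a fixed sum or a constant prior variance (adjusted p = 0.15, 0.697 and 0.107). After quantile normalization Eprs was called higher (log2 fold change 0.08, adjusted p = 0.0299), so its direction depends on the scaling. Vars, the valyl enzyme, did not pass: it had 32.1, 34.8 and 34.6 FPKM in BACH1-KO and 36.2, 36.1 and 35.9 FPKM in WT, a log2 fold change of -0.09 (SE 0.04, adjusted p = 0.0729), with every knockout library below every WT library. Centred on the median of its chromosome it was called lower (-0.12, adjusted p = 0.024).

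Mitochondrial synthetase transcripts moved both ways in nearly equal numbers. Of the 16, 8 rose, 7 fell and 1 did not pass, where 37.3% of all tested genes rose and 39.7% fell, and the median log2 fold change was 0.11, or 0.17 with FPKM rescaled to a fixed sum. The knockout libraries were all above the WT libraries in 9 and all below in 7, where the shares of all genes were 38.4% and 40.9%. Class I genes rose in 5 of 9 and class II genes in 3 of 7, with medians of 0.14 and -0.41. Tested against a fold change of 1.5, 1 was higher, Rars2, where 10.9% of all tested genes were, and 0 were lower by limma's treat (also 0 at an unadjusted p under 0.05), where 8.16% were. With 16 genes the counts past 1.5-fold are near those shares. These counts depend on the spread of a gene as well as on the size of its change. Mars2, at a log2 fold change of 0.72 (SE 0.09), did not pass (treat adjusted p = 0.322). The cytosolic Yars, at 0.69 (SE 0.03), did (treat adjusted p = 0.0369). The median size of a change, whatever its sign, was 0.44 on the log2 scale among the mitochondrial genes, 0.47 among the cytosolic genes and 0.38 among all tested genes.

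Rars2, the mitochondrial arginyl enzyme (chromosome 4, 34614957 to 34660167, plus strand), had the largest rise of the mitochondrial genes. It had 58.3, 55.9 and 58.0 FPKM in BACH1-KO and 28.9, 27.1 and 25.9 FPKM in WT, a log2 fold change of 1.05 (SE 0.05, adjusted p = 3.51e-07) that ran from 1.01 to 1.13 over the alternative settings. Mars2, for methionine, had 7.76, 7.76 and 7.56 FPKM in BACH1-KO and 5.04, 3.82 and 4.01 FPKM in WT, a log2 fold change of 0.72 (SE 0.09, adjusted p = 1.08e-04), or 0.84 with a pseudocount of 0.1, where that of Rars2 was 1.07. The WT libraries of Mars2 varied by 15.2% (coefficient of variation) and those of BACH1-KO by 1.5%. Pars2, for proline, had 7.29, 9.0 and 7.16 FPKM in BACH1-KO and 6.05, 5.20 and 4.90 FPKM in WT, a log2 fold change of 0.46 (SE 0.10, adjusted p = 0.00286). Sars2, for serine, had 14.4, 14.7 and 15.4 FPKM in BACH1-KO and 10.3, 11.9 and 11.1 FPKM in WT, a log2 fold change of 0.39 (SE 0.06, adjusted p = 3.80e-04). In all of these the groups did not overlap, though the second knockout library of Pars2 stood above the other two.

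Nars2, for asparagine, had 10.1, 10.2 and 11.0 FPKM in BACH1-KO and 7.94, 7.39 and 8.53 FPKM in WT, a log2 fold change of 0.35 (SE 0.06, adjusted p = 0.00118). Wars2, for tryptophan, was the lowest of all members, with 1.93, 1.84 and 1.89 FPKM in BACH1-KO and 1.33, 1.01 and 1.31 FPKM in WT. Its log2 fold change was 0.39 (SE 0.09, adjusted p = 0.00351) with a pseudocount of 1 and 0.61 with a pseudocount of 0.1, and it was not called after quantile normalization (0.09, adjusted p = 0.341). Ears2, for glutamate, and Cars2, for cysteine, rose by 0.23 and 0.14 on the log2 scale. Ears2 was no longer called without the second knockout column (adjusted p = 0.0641), nor Cars2 without the first knockout, the second WT or the third WT column (adjusted p = 0.0795, 0.0747 and 0.0527). Yars2, for tyrosine, did not pass, with 37.5, 38.9 and 38.9 FPKM in BACH1-KO and 36.6, 36.3 and 36.6 FPKM in WT, a log2 fold change of 0.07 (SE 0.03, adjusted p = 0.08). Every knockout library of Yars2 was nonetheless above every WT library, and 4 alternatives that change the scaling or centring called it higher (log2 fold change 0.10 to 0.16).

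The mitochondrial genes that fell did so within a narrow range of log2 fold change, from -0.62 to -0.39. Lars2, for leucine, had 24.2, 21.4 and 22.9 FPKM in BACH1-KO and 29.4, 39.7 and 38.5 FPKM in WT, a log2 fold change of -0.62 (SE 0.11, adjusted p = 8.63e-04). The first WT library of Lars2 was low against the other two, and the WT coefficient of variation of 15.8% was the highest of all members. Tars2, for threonine, had 25.2, 25.8 and 24.3 FPKM in BACH1-KO and 37.8, 36.2 and 40.3 FPKM in WT, a log2 fold change of -0.58 (SE 0.05, adjusted p = 1.11e-05). Aars2, for alanine, had 10.2, 9.80 and 9.97 FPKM in BACH1-KO and 14.8, 14.8 and 15.3 FPKM in WT, a log2 fold change of -0.54 (SE 0.04, adjusted p = 8.86e-06). Both had tight groups well apart, opposite in direction to Tars and Aars.

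Fars2, for phenylalanine, had 18.6, 20.2 and 19.7 FPKM in BACH1-KO and 29.9, 28.5 and 26.7 FPKM in WT, a log2 fold change of -0.52 (SE 0.05, adjusted p = 3.55e-05). Iars2, for isoleucine, had 27.5, 27.4 and 26.3 FPKM in BACH1-KO and 38.2, 39.9 and 38.7 FPKM in WT, a log2 fold change of -0.51 (SE 0.04, adjusted p = 5.23e-06). Of the annotated exon bases of Iars2, 22.9% are shared with Rab3gap2 on the opposite strand, which had 7.69 FPKM in BACH1-KO and 9.97 FPKM in WT. Hars2, for histidine, had 6.53, 6.56 and 8.26 FPKM in BACH1-KO and 9.34, 9.89 and 9.92 FPKM in WT, a log2 fold change of -0.41 (SE 0.09, adjusted p = 0.00257), with the third knockout library nearest to WT. Vars2, for valine, averaged 3.84 ± 0.253 FPKM in BACH1-KO and 5.36 ± 0.0929 FPKM in WT (SD, n = 3 each), a log2 fold change of -0.39.

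**Figure D2:**
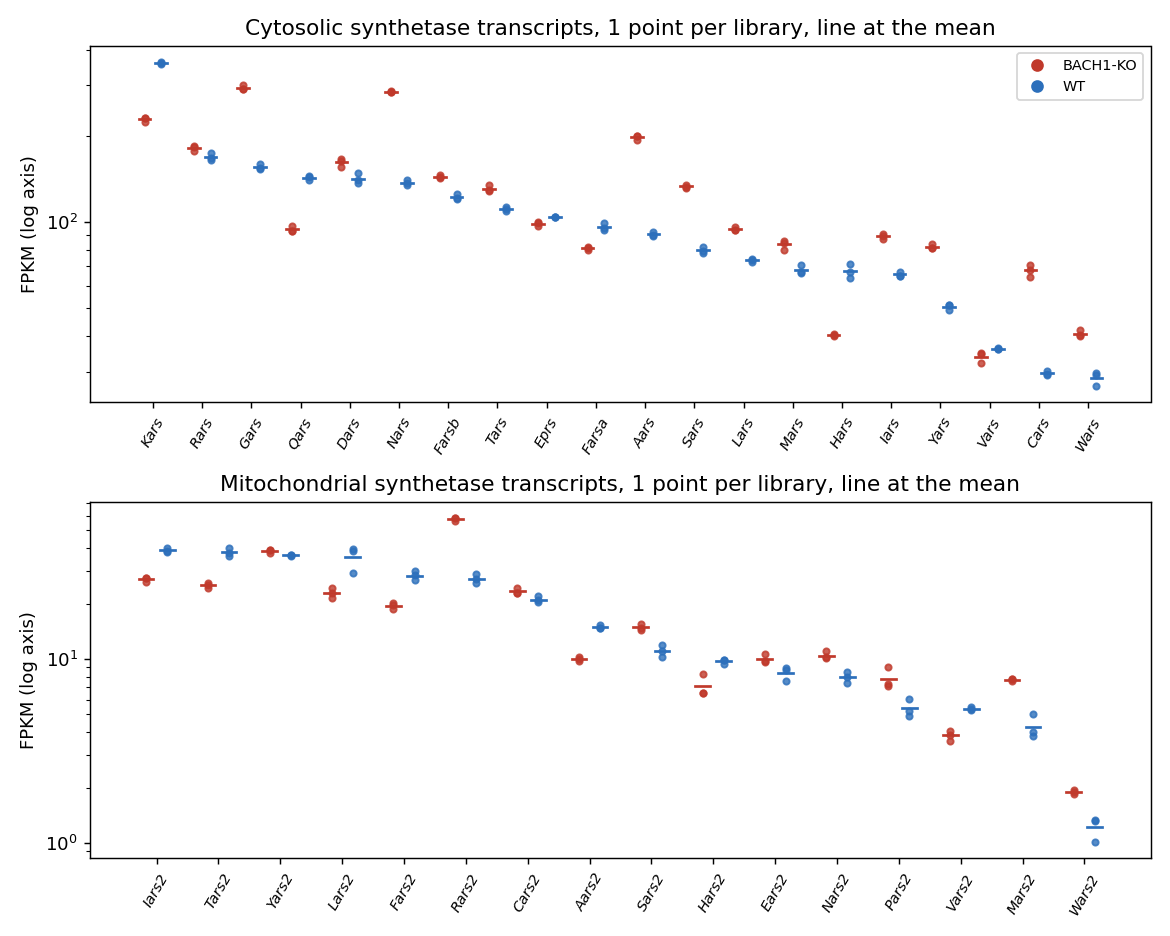
FPKM of each synthetase transcript on a log axis, 1 point per library and a line at the mean of 3, with BACH1-KO in red to the left of WT in blue and genes ordered by their WT mean, cytosolic above and mitochondrial below. Gars, Nars and Aars in the upper panel and Rars2 in the lower stand above their WT points, while Kars, Qars, Hars, Iars2, Tars2 and Lars2 stand below theirs.

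The order of levels within each compartment changed with the genotype. In BACH1-KO the highest cytosolic transcripts were Gars (295 ± 5.61 FPKM), Nars (286 ± 2.10) and Kars (228 ± 4.74), and the libraries of these genes did not overlap. In WT Kars led with 360 ± 2.99 FPKM, and Rars (169 ± 4.62), Gars (156 ± 2.98) and Qars (143 ± 2.43) followed. The WT libraries of Qars overlapped those of Dars (142 ± 5.8 FPKM). Aars was the fourth of 20 in BACH1-KO and was 11 of 20 in WT. The lowest cytosolic transcript was Vars in BACH1-KO (33.8 ± 1.49 FPKM) and Wars in WT (28.6 ± 1.64). In WT the libraries of Wars and Cars (29.7 ± 0.506 FPKM) overlapped.

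Among the mitochondrial genes Rars2 was the highest in BACH1-KO, with 57.4 ± 1.33 FPKM, and the sixth in WT, with 27.3 ± 1.48 FPKM. The WT order was led by Iars2 (39.0 ± 0.862 FPKM), Tars2 (38.1 ± 2.09) and Yars2 (36.5 ± 0.159), with Lars2 (35.8 ± 5.65) beside them, and the libraries of Tars2 and Lars2 overlapped those of Iars2. The mean level of a mitochondrial gene had a median of 12.6 FPKM over the 16 genes in BACH1-KO and 13.0 FPKM in WT. The same median over the 20 cytosolic genes was 96.7 FPKM in BACH1-KO and 93.5 FPKM in WT.

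Summed over genes, the cytosolic transcripts were higher in BACH1-KO and the mitochondrial ones were nearly level. The cytosolic sum was 2534, 2575 and 2583 FPKM in BACH1-KO and 2139, 2124 and 2128 FPKM in WT, a ratio of means of 1.20. The 12 free enzymes summed to 1519, 1534 and 1543 FPKM in BACH1-KO and 1024, 999 and 991 FPKM in WT, a ratio of 1.52. The largest differences within it were those of Nars (mean 286 FPKM in BACH1-KO and 137 in WT), Gars (295 and 156) and Aars (198 and 90.8). Hars, Farsa and Vars had lower means in BACH1-KO. The 8 enzymes of the complex summed to 1015, 1041 and 1041 FPKM in BACH1-KO and 1114, 1124 and 1137 FPKM in WT, a ratio of 0.92, in which Kars and Qars outweighed the 5 members that rose. The 16 mitochondrial genes summed to 287, 287 and 288 FPKM in BACH1-KO and 292, 295 and 297 FPKM in WT, a ratio of 0.98. As a share of all FPKM the mitochondrial sum ran from 0.0375% to 0.0377% in BACH1-KO and from 0.0366% to 0.0371% in WT, so its direction depends on the scaling. The cytosolic sum was 8.82 to 8.98 times the mitochondrial one in BACH1-KO and 7.16 to 7.33 times in WT.

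**Figure D3:**
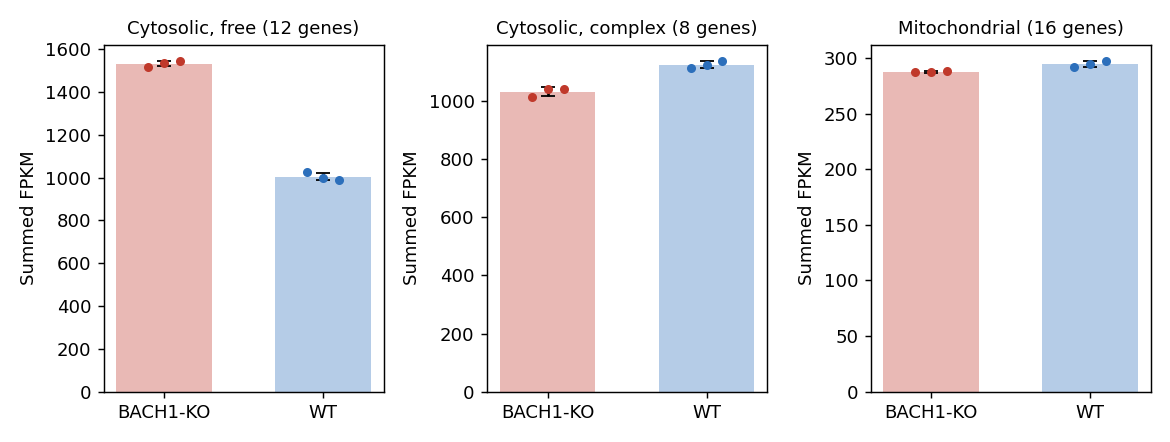
Summed FPKM of 12 free cytosolic, 8 complex-bound cytosolic and 16 mitochondrial synthetase genes, with bars at the mean of 3 libraries, SD as error bars and 1 point per library, BACH1-KO left of WT. The free enzymes reach 1519 to 1543 FPKM in BACH1-KO against 991 to 1024 FPKM in WT, while the complex reaches 1015 to 1041 against 1114 to 1137 FPKM and the mitochondrial genes 287 to 288 against 292 to 297 FPKM.

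Matched by amino acid, the transcripts of the 2 compartments were called in opposite directions for several amino acids. For each of 17 pairs the log2 ratio of cytosolic to mitochondrial FPKM (pseudocount 1) was taken within each library, which nearly removes the library scaling. All knockout ratios were above all WT ratios in 12 pairs and below them in 5. Taken singly, the libraries of all 36 members did not overlap, nor did those of 79.3% of all tested genes. These are shares of single genes, and no share over other pairs of genes was taken. The exact two-sided permutation test gave p = 0.1 for each pair, also after adjustment over the 17, and this is the smallest that 3 against 3 libraries allow, so no pair could pass 0.05. The pairs are not independent, since Eprs and Fars2 are in 2 of them each.

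The largest difference was that of alanine. The Aars to Aars2 log2 ratio was 4.13, 4.22 and 4.20 in BACH1-KO and 2.56, 2.53 and 2.47 in WT, a difference of 1.66, since Aars rose and Aars2 fell. Leucine, isoleucine, threonine and, through Farsb, phenylalanine showed the same pair of opposite calls, with differences of 0.98, 0.94, 0.81 and 0.75. Eprs to Pars2 and Eprs to Ears2 had the reverse pair of calls, and the call of Eprs changed direction after quantile normalization. Of all tested genes, taken singly, 37.3% were called higher and 39.7% lower. No share of opposite calls over other pairs of genes was taken. In 6 pairs both transcripts rose, and the sign of the difference followed whichever rose more. For cysteine it was 1.02, with ratios of 1.38, 1.60 and 1.53 in BACH1-KO and 0.45, 0.52 and 0.47 in WT. For arginine it was -0.95, with ratios of 1.59, 1.70 and 1.64 in BACH1-KO and 2.48, 2.59 and 2.70 in WT, since Rars2 doubled while Rars moved little. The other pairs with a lower ratio in BACH1-KO were Eprs to Pars2 (-0.54), Mars to Mars2 (-0.43), Hars to Hars2 (-0.32) and Eprs to Ears2 (-0.30). The tryptophan difference of 0.11 changed sign with a pseudocount of 0.1 (-0.09).

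**Figure D4:**
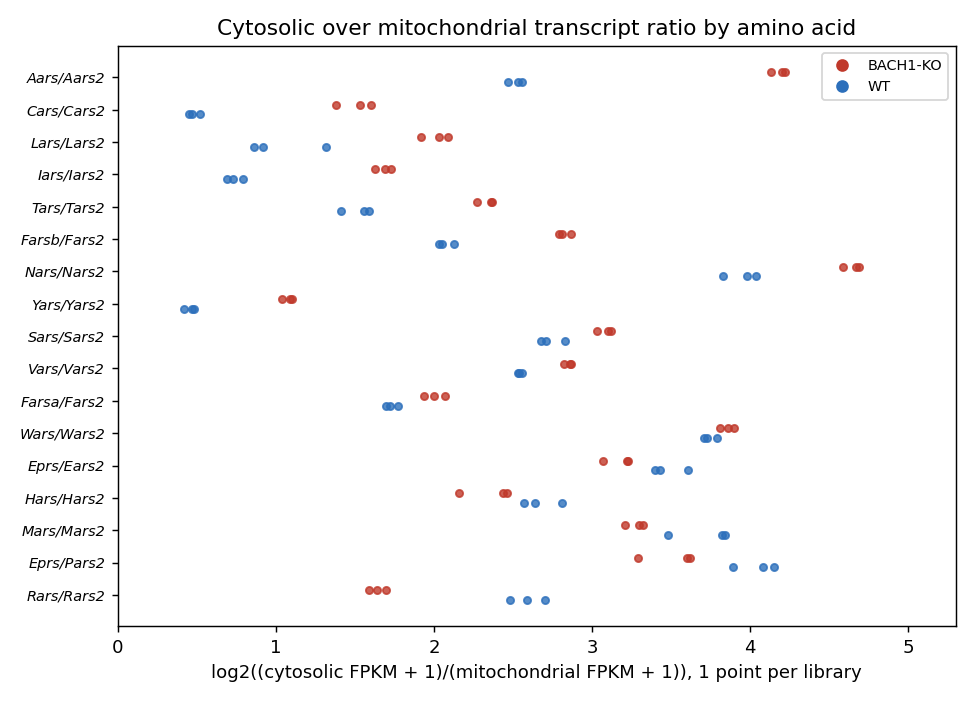
Log2 ratio of cytosolic to mitochondrial FPKM (pseudocount 1) for 17 pairs of enzymes of the same amino acid, 1 point per library, BACH1-KO in red above WT in blue within each row. Red points lie to the right of all blue points in the upper 12 rows, most of all for Aars/Aars2, and to the left in the lower 5, most of all for Rars/Rars2.

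Several members share their start region or exons with another gene. Hars and Hars2 lie head to head on chromosome 18 with 195 exon bases in common and starts 197 bases apart, and both fell. Rars2 starts 13 bases from Orc3, a subunit of the origin recognition complex on the opposite strand, which fell to 14.1 FPKM in BACH1-KO, against 20.2 FPKM in WT (log2 fold change -0.48, adjusted p = 3.32e-05), opposite to Rars2. Sars2 starts 172 bases from Mrps12, a mitochondrial ribosomal protein gene, which averaged 36.6 FPKM in BACH1-KO and 74.0 FPKM in WT (log2 fold change -0.99, adjusted p = 1.53e-05), opposite to Sars2. Fars2 and Ears2 also moved opposite to their divergent neighbours Lyrm4 (log2 fold change 0.50) and Ubfd1 (-0.41), while Wars and Yars rose with Wdr25 (0.83) and S100pbp (0.19). Kars starts 75 bases from Terf2ip, which did not pass (log2 fold change -0.13, adjusted p = 0.119).

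Reads from shared exons cannot be assigned with certainty. Aars has an annotated transcript that runs into Exosc6 on the same strand, with 1326 shared bases, and Exosc6 fell (log2 fold change -0.31, adjusted p = 0.0012) where Aars rose. Fars2 shares 501 bases with Nrn1 on the opposite strand, and Farsb shares 248 with Sgpp2. Iars has a processed pseudogene elsewhere, Gm4849, with a longest match of 1656 bases at 96.0% identity. No other member had a transcript match of at least 200 bases at 95% identity outside its own locus in GENCODE M21.

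Other genes of tRNA charging and maturation moved in both directions. Of 45 searched, 44 had a row under that symbol and were tested, and 21 rose, 15 fell and 8 did not pass, with a median log2 fold change of 0.09, where 77.0% of all tested genes were called. Of the scaffold proteins that hold the multisynthetase complex together, Eef1e1 averaged 206 ± 2.17 FPKM in BACH1-KO and 171 ± 2.83 FPKM in WT, and Aimp1 271 ± 1.74 FPKM in BACH1-KO and 252 ± 8.17 FPKM in WT, both called higher. Aimp2 was lower, at 73.7 ± 2.48 FPKM in BACH1-KO and 82.8 ± 3.69 FPKM in WT. None of the scaffolds passed against a fold change of 1.5.

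Among editing factors and synthetase-like genes 3 of 7 rose and 1 fell, where 37.3% of all tested genes rose and 39.7% fell. Prorsd1, related to the editing domain of prolyl enzymes, averaged 21.9 ± 0.224 FPKM in BACH1-KO and 7.78 ± 0.971 FPKM in WT (log2 fold change 1.39, adjusted p = 1.08e-06), a larger change than that of any synthetase. Dtd2, a deacylase that clears mischarged tRNA, rose by 0.44 on the log2 scale. Aarsd1, related to the editing domain of alanyl enzymes, averaged 71.0 ± 0.841 FPKM in BACH1-KO and 118 ± 4.97 FPKM in WT (log2 fold change -0.73, adjusted p = 7.67e-07), opposite to Aars. Mitochondria make glutaminyl tRNA by an amidotransferase rather than a synthetase, and Gatc, one of its subunits, averaged 9.35 ± 0.936 FPKM in BACH1-KO and 4.75 ± 0.676 FPKM in WT, called higher. Its subunit gene Qrsl1 did not pass (log2 fold change -0.07, adjusted p = 0.316), and Mtfmt, which formylates the mitochondrial initiator tRNA, rose by 0.78. Pstk and Sepsecs, which turn the seryl group on selenocysteine tRNA into selenocysteine, rose by 0.38 and 0.56.

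Among 19 genes of tRNA processing, modification and export 8 rose, 8 fell and 3 did not pass, near the shares of all tested genes (37.3% higher and 39.7% lower). Tsen15, a subunit of the tRNA splicing endonuclease, averaged 41.5 ± 0.670 FPKM in BACH1-KO and 18.6 ± 1.29 FPKM in WT. Trmt61a, a tRNA methyltransferase subunit, and Adat1, a tRNA adenosine deaminase, rose by 0.88 and 0.77 on the log2 scale. Nsun2, which methylates cytosines in tRNA, averaged 60.7 ± 1.34 FPKM in BACH1-KO and 124 ± 2.62 FPKM in WT, and Ssb, the La protein that binds new tRNA transcripts, 166 ± 7.83 FPKM in BACH1-KO and 307 ± 19.9 FPKM in WT. Rpp30, a subunit of ribonuclease P, fell by 0.41 on the log2 scale. Of 10 genes of mitochondrial tRNA modification 4 rose and 5 fell, also near those shares. Mto1 and Trit1, which modify the anticodon loop, fell by 0.83 and 0.79 and Hsd17b10, a subunit of mitochondrial ribonuclease P, by 0.28, while Nsun3, Trmt5 and Trmt10c rose by 0.69, 0.31 and 0.15.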

How the data were processed

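Cufflinks and mm10 are named in the submitters' processing notes. Aligner, annotation, versions and strand setting: not given in the sources used here. The authors deposited 1 table of FPKM per gene symbol and library, whose columns name the genotype but no sample title, so each was a replicate of its group with no pairing. Another 23 rows with a number for a symbol (0.0987% of summed FPKM) were left out. FPKM is a share of the library, and absolute depth is unknown, so relative depth was read from values under 0.1 FPKM.

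Log2(FPKM + 1) was fitted with limma 3.58.1 in R 4.3.3 (mean-variance trend, two-sided, Benjamini-Hochberg) for the 12187 genes averaging 1 FPKM or more, and called at an adjusted p under 0.05. Fold changes are BACH1-KO minus WT, and a pseudocount of 1 understates those of low genes. Pairs were tested by exact permutation. Per-library values are given for the 6 largest rises and falls per compartment and for members not called, and of other tRNA genes up to 3 per direction and list are named, except 1 that is not reported here. Positions are from GENCODE M21 (GRCm38, the same assembly as mm10). The members, lists and alternatives were chosen with earlier results of these data known.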

Additional observations from a re-analysis of the deposited data

How the results depend on the processing

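No paired analysis was possible because the columns of the table cannot be tied to single sample titles. Of the 36 synthetase genes, all kept their direction with another pseudocount, no filter, median-of-ratios scaling, rescaling to a fixed sum, a constant prior variance, centring on the chromosome median and without any 1 library. The exception was quantile normalization, under which Eprs was called higher (log2 fold change 0.08, adjusted p = 0.0299), and the Wars to Wars2 ratio difference was -0.09 with a pseudocount of 0.1. Against a fold change of 1.5, 2319 genes passed in all (1325 higher, 994 lower), of them 6 cytosolic members higher and 1 lower, and 1 mitochondrial higher and 0 lower. Requiring an average of 5 FPKM left 2942 genes called higher, among fewer tested. The cytosolic median log2 fold change was 0.29 with median-of-ratios scaling, 0.41 after quantile normalization, 0.33 with FPKM rescaled to a fixed sum, 0.32 when centred on the chromosome median, and 0.26 to 0.28 with 1 library left out. The mitochondrial median was 0.17 when rescaled and 0.16 when chromosome-centred. The cause of these shifts was not tested. Without read counts, counting error cannot be set beside the spread between libraries, which matters most for the lowest member, Wars2.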
